A study of Mus musculus with 16 samples.

Results

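The Fc gamma receptor genes Fcgr1, Fcgr2b, Fcgr3 and Fcgr4 were examined together with Fcer1g, which encodes the signalling chain of the activating receptors, and Syk, which encodes the kinase that binds it. These 6 genes were taken by symbol from the 24421 genes of the count data, and all 6 were measured in all 16 libraries. The libraries were made from CD11b+ cells, sorted as live CD45+ Kaede+ cells without TER119 or NK1.1, from MC38-Ova tumours grown under the skin of Kaede transgenic mice. The mice were labelled as C57BL/6 with no treatment, and by the study's methods were female and 8 to 14 weeks old. Violet light converted the Kaede protein of cells in the tumour from green to red when the tumours were established. Kaede-green cells were therefore those that had entered the tumour since photoconversion, and Kaede-red cells those that had stayed in it. Both populations were sorted 24h or 72h after photoconversion, with 4 libraries in each of the 4 groups. MC38-Ova is a mouse colon carcinoma line that carries ovalbumin, and every group came from this tumour, so no normal tissue stood beside it.

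Fc gamma receptors bind the constant part of IgG, and in macrophages and monocytes they couple antibody-coated targets to phagocytosis and cytokine release. Fcgr1 encodes the high affinity receptor, Fcgr3 a low affinity receptor and Fcgr4 a receptor of intermediate affinity, and all of them signal through the Fc receptor gamma chain encoded by Fcer1g. Src family kinases phosphorylate the immunoreceptor tyrosine-based activation motif (ITAM) of this chain, to which Syk then binds. Fcgr2b encodes the only inhibitory Fc gamma receptor of the mouse, which carries an inhibitory motif (ITIM) that recruits the lipid phosphatase SHIP1. The balance of activating to inhibitory receptors sets the threshold at which a myeloid cell responds to immune complexes.

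In the GENCODE M21 annotation of the mm10 (GRCm38) genome, 4 of the 6 genes lay close together on chromosome 1. These were Fcgr2b (chr1:170958617-170976547, minus strand), Fcgr4 (chr1:171018920-171029761, plus strand), Fcgr3 (chr1:171051174-171064935, minus strand) and Fcer1g (chr1:171229572-171234365, minus strand). The gaps between them were 42.4, 21.4 and 164.6 kb in this order. Fcgr1 lay on chromosome 3 (chr3:96282909-96293969, minus strand) and Syk on chromosome 13 (chr13:52583173-52648792, plus strand). The start regions of the 4 receptor genes are shown for reference. They run from 250 bases before to 50 bases after the RefSeq start (GRCm38.p6), the first listed of 2 for Fcgr3. Each is read 5′ to 3′ on the strand of the gene. Capitals mark matches to GAGGAAG, the letters of a PU.1 site, on either strand.
Fcgr1, chr3:96293920-96294219, minus strand: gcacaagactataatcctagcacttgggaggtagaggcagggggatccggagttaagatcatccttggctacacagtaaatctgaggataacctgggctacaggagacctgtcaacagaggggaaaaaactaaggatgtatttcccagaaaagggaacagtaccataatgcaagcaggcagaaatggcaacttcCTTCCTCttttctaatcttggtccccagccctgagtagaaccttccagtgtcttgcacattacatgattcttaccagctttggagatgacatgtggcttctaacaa
Fcgr3, chr1:171059354-171059653, minus strand: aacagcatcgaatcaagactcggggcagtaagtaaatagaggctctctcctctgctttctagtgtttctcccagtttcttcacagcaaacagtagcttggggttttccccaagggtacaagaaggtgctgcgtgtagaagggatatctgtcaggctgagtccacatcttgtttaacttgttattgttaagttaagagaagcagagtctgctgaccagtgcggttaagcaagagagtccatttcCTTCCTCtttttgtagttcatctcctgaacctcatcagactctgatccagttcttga
Fcgr4, chr1:171018676-171018975, plus strand: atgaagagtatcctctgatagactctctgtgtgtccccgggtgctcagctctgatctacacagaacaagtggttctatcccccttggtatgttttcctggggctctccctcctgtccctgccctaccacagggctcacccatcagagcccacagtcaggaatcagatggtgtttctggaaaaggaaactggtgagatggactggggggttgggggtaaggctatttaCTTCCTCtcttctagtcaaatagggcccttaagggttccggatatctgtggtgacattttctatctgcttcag
Fcgr2b, chr1:170976022-170976321, minus strand: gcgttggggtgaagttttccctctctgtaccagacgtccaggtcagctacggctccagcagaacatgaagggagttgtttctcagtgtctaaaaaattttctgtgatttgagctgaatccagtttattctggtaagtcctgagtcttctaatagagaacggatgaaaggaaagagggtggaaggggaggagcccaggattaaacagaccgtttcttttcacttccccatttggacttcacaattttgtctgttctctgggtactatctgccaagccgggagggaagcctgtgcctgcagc

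In these windows Fcgr1, Fcgr3 and Fcgr4 held the PU.1 letters on the opposite strand, at positions -56 to -50, -7 to -1 and -23 to -17 from the start. From the other Fcgr3 start the same letters lay at -16 to -10. These letters were not found in the windows of Fcgr2b, Fcer1g and Syk. Of 32851 promoter windows of the same length, 13.6% held them. A match describes the sequence and does not show binding, and its bearing on the levels of these genes was not tested.

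Total counts per library ranged from 3216858 to 15423085. The ribosomal RNA gene Rn45s took 79.0 to 93.4% of the counts in Kaede-green and 55.8 to 84.9% in Kaede-red libraries, which left 468092 to 5472477 counts for the other genes. A table of 9642 genes with enough counts was tested in a single edgeR quasi-likelihood fit of all 16 libraries with Benjamini-Hochberg adjustment, and a gene was called at an adjusted p under 0.05. All 6 genes described here passed the filter, and the p-values measure the spread between these libraries. Levels are given as CPM, counts scaled to a common library size with TMM factors, and per kilobase of exon where genes are set side by side. Scaling by total counts only moved the median log2 difference of all tested genes between Kaede-red and Kaede-green cells from 0.06 to 2.20, so that differences are relative to the other genes. Adding the Rn45s share of a library as a covariate reduced the genes called over both times from 1950 to 173. At 24h this share was 86.5 to 93.4% in Kaede-green and 66.2 to 84.9% in Kaede-red libraries. At 72h it was 79.0 to 91.0% and 55.8 to 73.8%, without overlap at either time. Colour and Rn45s share are therefore confounded here, and a call lost with this covariate does not show whether the difference is real.

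Per kilobase, Fcer1g was the most abundant of the 6 transcripts, with 182 ± 38.6 CPM per kb (SD, n = 16). Fcgr1 followed with 65.5 ± 11.2, Fcgr3 with 60.2 ± 12.0 and Fcgr4 with 56.3 ± 10.4 CPM per kb, with library ranges that overlapped. Fcgr2b had 16.2 ± 6.32 CPM per kb and Syk 3.67 ± 1.38. The library ranges of Fcer1g (125 to 294), the 3 activating receptors (30.9 to 86.1), Fcgr2b (6.56 to 24.8) and Syk (1.92 to 6.18) did not overlap. Within libraries the ratio of Fcgr1 to Fcgr3 was 0.79 to 1.38 in Kaede-green and 1.02 to 1.26 in Kaede-red libraries. These levels depend on the exon length used. Taking exons of all GENCODE transcripts, the means were 140 for Fcer1g, 65.5 for Fcgr1, 46.7 for Fcgr3 and 56.3 for Fcgr4. Fcgr2b was then at 9.93 and Syk at 2.18 CPM per kb.

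Fcgr2b was higher in Kaede-red than in Kaede-green CD11b+ cells at both times, while the 3 activating receptors and Fcer1g were not called in any comparison and Syk was higher on the Kaede-red side at 72h. In these bulk libraries fewer cells that express a gene and less RNA of it per cell cannot be told apart. Over both times 1 of the 6 genes was called, with 20.2% of all tested genes called (9.96% as higher). At 24h 1 of 6 was called against 7.51% of all tested genes (3.2% as higher), and at 72h 2 of 6 against 16.8% (8.07% as higher). All 6 genes had at least 31 counts in every library, whereas the shares here and below include thinly counted genes. The 3084 genes with at least 10 counts in every library were also fitted alone. Of these 1362 were called over both times (678 as higher), 590 at 24h (289) and 1294 at 72h (653). Syk was then also called over both times. The median log2 difference of the 6 genes was -0.07 at 24h and 0.21 at 72h, beside 0.05 and 0.03 over all tested genes.

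**Figure D1:**
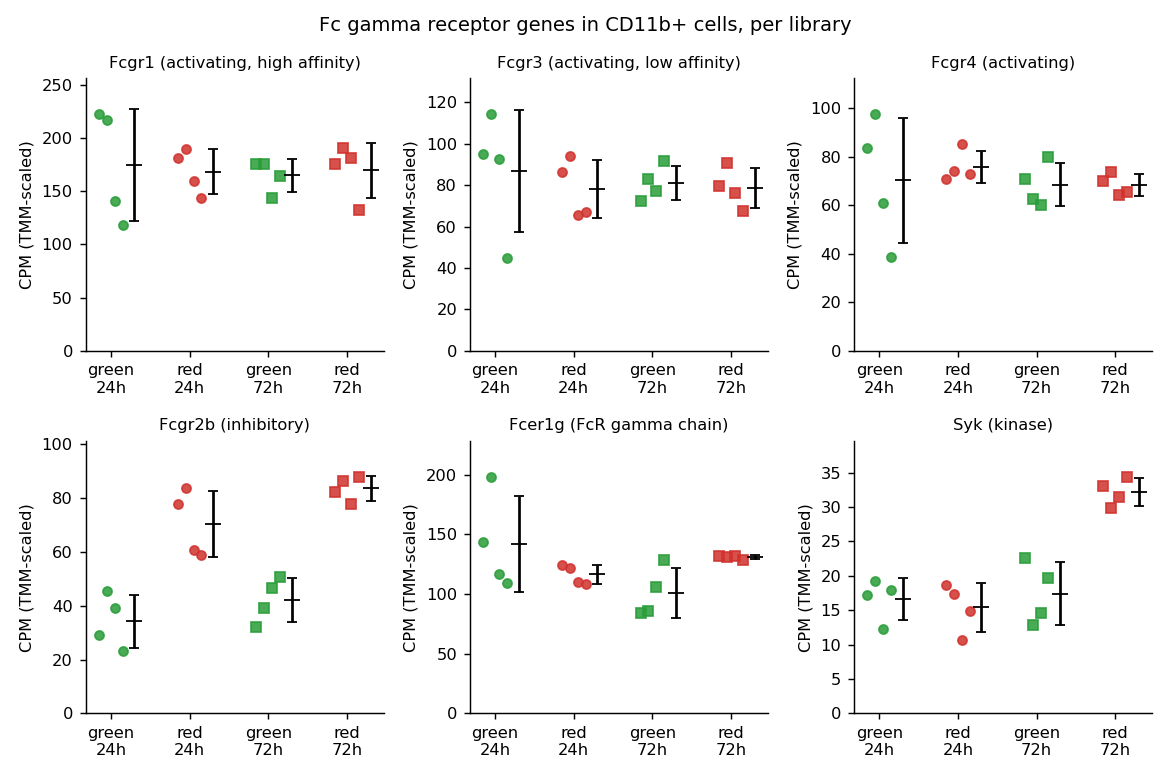
Level of each gene in each library, in TMM-scaled CPM (y axis, from 0), by group (x axis). Circles are libraries at 24h and squares libraries at 72h, in the colour of the Kaede protein, and bars give the mean ± SD of 4 libraries. All 8 Kaede-red libraries lie above all 8 Kaede-green libraries for Fcgr2b, and the 4 Kaede-red libraries at 72h stand above the other 12 for Syk.

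Fcgr2b had 29.0, 45.4, 39.0 and 23.3 CPM in the 4 Kaede-green libraries at 24h and 77.8, 83.7, 60.8 and 58.7 CPM in the 4 Kaede-red libraries at 24h. At 72h it had 32.1, 39.0, 46.7 and 50.6 CPM in Kaede-green and 82.4, 86.4, 77.6 and 87.9 in Kaede-red libraries. Every Kaede-red library was above every Kaede-green library, which was true of 1.19% of all tested genes. The difference over both times was 1.01 on the log2 scale (SE 0.15, 95% interval 0.71 to 1.31, adjusted p = 4.23e-06 by edgeR), or 2.01-fold with an interval of 1.64 to 2.47. It was 1.03 (SE 0.21, adjusted p = 0.0015 by edgeR) at 24h and 0.99 (SE 0.20, adjusted p = 0.00079 by edgeR) at 72h, and the change of the difference with time was -0.05 (95% interval -0.64 to 0.54, adjusted p = 0.96). The Kaede-green values rest on 52 to 195 counts per library and the Kaede-red values on 336 to 4184. The call was kept without any 1 of the 16 libraries, with log2 differences of 0.92 to 1.11. With the Rn45s share as a covariate it was lost, at 0.45 over both times (SE 0.23, adjusted p = 0.50 by edgeR), 0.49 at 24h (0.43) and 0.41 at 72h (0.70).

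Fcgr1 had 223, 217, 141 and 119 CPM in Kaede-green and 182, 190, 159 and 143 in Kaede-red libraries at 24h. At 72h it had 176, 176, 143 and 164 CPM in Kaede-green and 176, 190, 182 and 132 in Kaede-red libraries. The groups overlapped at both times, and the difference over both times was -0.0039 on the log2 scale (95% interval -0.30 to 0.29, adjusted p = 0.99 by edgeR), an interval of 0.812- to 1.225-fold.

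Fcgr3 had 95.3, 114, 92.6 and 44.9 CPM in Kaede-green and 86.3, 94.0, 65.7 and 67.1 in Kaede-red libraries at 24h. At 72h the values were 72.1, 82.8, 77.3 and 91.8 CPM in Kaede-green and 79.4, 90.8, 76.2 and 67.6 in Kaede-red libraries. Kaede-green replicate 4 at 24h was the lowest of all 16 libraries, as it also was for Fcgr1, Fcgr2b and Fcgr4. This library had the fewest counts outside Rn45s (468092). The groups overlapped. The difference was -0.10 (95% interval -0.41 to 0.21, adjusted p = 0.70 by edgeR) over both times. Fcgr3 shared 9.58% of its 50-base stretches with Fcgr2b, its near relative, and Fcgr2b shared 2.92% with Fcgr3, so that some reads could not be assigned to either with certainty.

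Fcgr4 had 83.6, 97.7, 61.0 and 38.8 CPM in Kaede-green and 70.9, 74.1, 85.4 and 72.9 in Kaede-red libraries at 24h. At 72h it had 71.0, 62.7, 60.3 and 79.9 CPM in Kaede-green and 70.1, 73.8, 64.1 and 65.5 in Kaede-red libraries. The groups overlapped at both times. The difference was 0.06 (95% interval -0.24 to 0.36, adjusted p = 0.84 by edgeR) over both times.

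**Figure D2:**
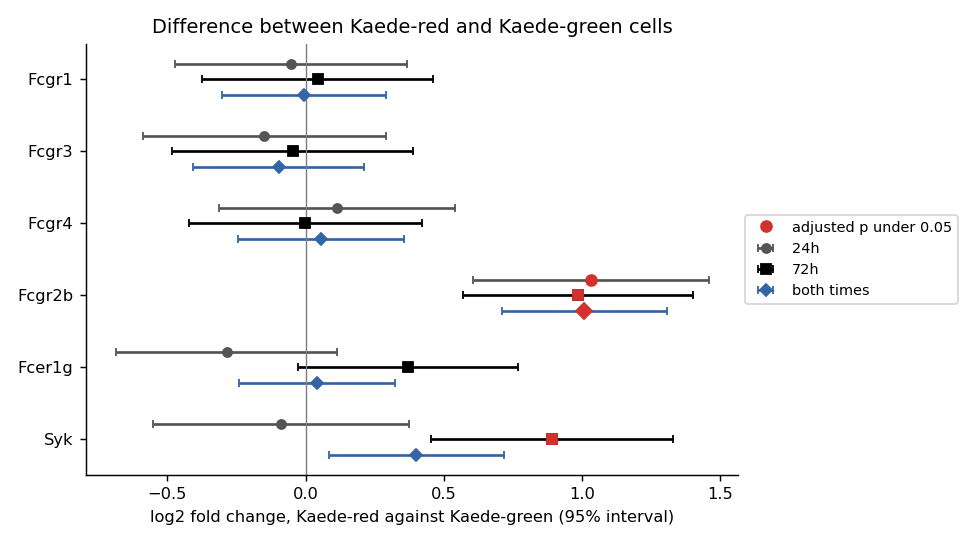
Log2 fold change of Kaede-red against Kaede-green cells (x axis) with its 95% interval for each gene (y axis), at 24h, at 72h and over both times. Red symbols mark an adjusted p under 0.05. The intervals of Fcgr2b start at 0.61, 0.57 and 0.71, and those of Fcgr1, Fcgr3 and Fcgr4 include 0 in every case.

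Because a ratio between genes of 1 library does not depend on how libraries are scaled, the activating receptors were also set against Fcgr2b within each library. The summed per-kilobase level of Fcgr1, Fcgr3 and Fcgr4 was 12.2 to 27.3 times that of Fcgr2b in Kaede-green libraries (geometric mean 17.1) and 6.18 to 10.4 times in Kaede-red libraries (geometric mean 8.39). The ranges did not overlap, and how often this holds for ratios of other genes was not counted. As the 3 activating receptors were not called, the ratio restates the Fcgr2b difference and is not a second, separate result. On the log2 scale the ratio was 4.27 ± 0.36 in Kaede-green and 3.22 ± 0.14 in Kaede-red libraries at 24h, and 3.93 ± 0.30 and 2.91 ± 0.19 at 72h (SD, n = 4 each). The difference between Kaede-red and Kaede-green libraries was -1.03, with a spread within groups of 0.26 (SD). The level of the ratio depends on the exon length used. With exons of all GENCODE transcripts as length the geometric means were 25.8 in Kaede-green and 12.7 in Kaede-red libraries, and the difference was -1.02. Taken singly, the activating receptors had mean log2 ratios over Fcgr2b of 2.62 and 1.59 for Fcgr1, 2.53 and 1.42 for Fcgr3, and 2.36 and 1.41 for Fcgr4 in Kaede-green and Kaede-red libraries. The libraries did not overlap for Fcgr1 and Fcgr3, and for Fcgr4 the highest Kaede-red library (1.99) was above the lowest Kaede-green library (1.87). The ratio of Fcgr4 to Fcgr3, both activating, was -0.18 ± 0.17 in Kaede-green and -0.01 ± 0.25 in Kaede-red libraries (log2, SD, n = 8 each), and these overlapped.

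**Figure D3:**
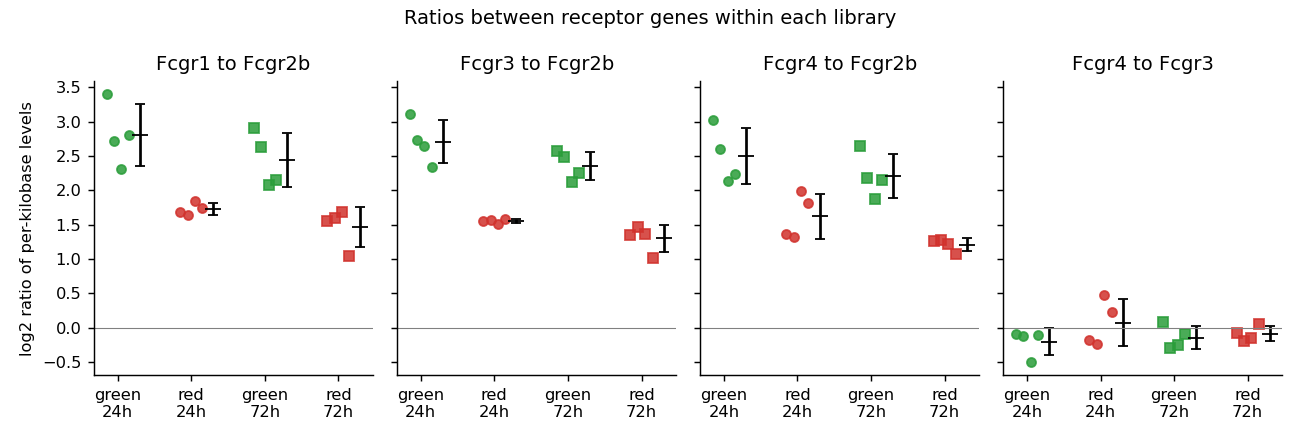
Log2 ratio of per-kilobase levels within each library (y axis) for 3 activating receptors over Fcgr2b and for Fcgr4 over Fcgr3, by group (x axis), with bars for the mean ± SD of 4 libraries. The ratios over Fcgr2b are lower in Kaede-red than in Kaede-green groups at both times, and the ratio of Fcgr4 to Fcgr3 stays near 0.

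Fcer1g, the shared signalling chain, had 144, 198, 117 and 109 CPM in Kaede-green and 125, 122, 110 and 109 in Kaede-red libraries at 24h. At 72h it had 84.2, 85.6, 106 and 128 CPM in Kaede-green and 132, 131, 132 and 128 in Kaede-red libraries. The groups overlapped at 24h, while at 72h each Kaede-red library was above each Kaede-green library, the nearest pair only just, as for 13.0% of all tested genes. Neither difference was called, at -0.29 (95% interval -0.69 to 0.11, adjusted p = 0.44 by edgeR) at 24h and 0.37 (-0.03 to 0.77, adjusted p = 0.20) at 72h. The change of the difference with time was 0.66 (95% interval 0.09 to 1.22, unadjusted p = 0.024) and did not pass the adjustment over all genes (adjusted p = 0.25 by edgeR). Per kilobase, the summed activating receptors stood at 0.877 (Kaede-green) and 1.06 (Kaede-red) times the level of Fcer1g at 24h, and at 1.21 and 0.916 times at 72h (geometric means).

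Syk, the kinase recruited by the gamma chain, had 17.3, 19.2, 12.2 and 18.0 CPM in Kaede-green and 18.7, 17.4, 10.7 and 14.9 in Kaede-red libraries at 24h. At 72h it had 22.6, 12.8, 14.6 and 19.7 CPM in Kaede-green and 33.0, 29.8, 31.4 and 34.4 in Kaede-red libraries. The Kaede-red libraries at 72h were above all others, and the other groups overlapped. Kaede-red exceeded Kaede-green cells by 0.89 on the log2 scale at 72h (SE 0.22, 95% interval 0.45 to 1.33, adjusted p = 0.0033 by edgeR), whereas the difference at 24h was -0.09 (95% interval -0.55 to 0.37, adjusted p = 0.87). Within Kaede-red cells Syk rose by 1.05 from 24h to 72h (SE 0.21, adjusted p = 0.0023 by edgeR), where 8.67% of all tested genes were called. The groups did not overlap there, as for 11.8% of all tested genes in this direction. Within Kaede-green cells it differed by 0.07 (95% interval -0.41 to 0.55, adjusted p = 0.96), where no gene was called by edgeR, 835 had an unadjusted p under 0.05 and DESeq2 called 13.

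The test of whether the Syk difference itself changed with time gave 0.98 (SE 0.31, unadjusted p = 0.0036) and missed the threshold over all genes with edgeR (adjusted p = 0.11), where 0.767% of genes were called. With DESeq2 it passed, at 0.95 (adjusted p = 0.026). The Syk difference at 72h was called without any 1 of the 16 libraries (0.75 to 1.03) but not with the Rn45s share as a covariate (0.45, adjusted p = 0.72). The rise within Kaede-red cells was called without any 1 library (0.95 to 1.17) and with that covariate (0.88, adjusted p = 0.024), and was lost with scaling by total counts only (1.40, adjusted p = 0.25). Over both times the Syk difference was 0.40 (adjusted p = 0.066 by edgeR), and it was called without Kaede-green replicate 2 at 24h (0.46), Kaede-red replicate 3 at 24h (0.47) or Kaede-green replicate 1 at 72h (0.47). The 4 receptors and Fcer1g were not called between 24h and 72h in either population, with log2 differences from -0.49 to 0.30 in Kaede-green and from -0.15 to 0.25 in Kaede-red cells.

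Markers of other states and cell types moved between the same libraries. All 6 macrophage markers (Csf1r, Adgre1, Cd68, Mertk, C1qa and Mrc1) were called higher in Kaede-red cells over both times, and their summed level was 98.1 to 149 CPM in Kaede-green and 213 to 412 CPM in Kaede-red libraries. Of 6 monocyte markers 4 were called lower, Chil3, Plac8 and Vcan among them, and the summed level was 712 to 1609 CPM in Kaede-green and 482 to 747 CPM in Kaede-red libraries. Of all 9642 tested genes 960 were called higher and 990 lower over both times. Cd68 had a log2 difference of 1.14 (SE 0.16) and Plac8 one of -1.91 (SE 0.18). The part of these markers in the Fcgr2b and Syk differences was not tested.

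B cells, NK cells, neutrophils and mast cells also use Fc gamma receptors or Fcer1g, and their markers were measured in the same libraries. B cell markers summed to 0.0 to 2.45 CPM in Kaede-green and 0.18 to 1.66 CPM in Kaede-red libraries, beside 23.3 to 87.9 CPM of Fcgr2b. Cd79b was the most abundant at a maximum of 1.23 CPM. NK cell markers summed to at most 8.98 CPM in Kaede-green and 4.16 in Kaede-red libraries, led by Prf1, and mast cell and basophil markers to at most 1.22 and 1.16 CPM, led by Kit. Of the neutrophil markers Ngp had no count in any library and Retnlg, Camp and Ltf had none in Kaede-green libraries. In the deeper Kaede-red libraries these had at most 10, 2 and 6 counts. Mean levels in Kaede-green and Kaede-red libraries were 0.79 and 0.25 CPM for S100a8, 0.63 and 0.39 for S100a9, and 0.54 and 0.59 for Mmp9. Only Csf3r had enough counts for a test. The 8 summed to 6.54 to 11.7 CPM in Kaede-green and 7.78 to 19.0 CPM in Kaede-red libraries, most of it Csf3r, which monocytic cells also express. Csf3r was higher over both times (0.67, SE 0.17, adjusted p = 0.0058 by edgeR, a call lost with the Rn45s share as a covariate) and reached 16.3 ± 0.815 CPM (SD, n = 4) in Kaede-red cells at 72h, the group in which Syk was high. Fibroblast markers summed to 40.3 to 52.6 CPM in Kaede-green and 11.1 to 35.8 CPM in Kaede-red libraries, led by Col3a1. Ccr7 (at most 0.972 CPM in Kaede-green and 2.46 in Kaede-red libraries) and Cd4 (0.778 and 1.55 CPM) were called higher over both times. Dendritic cell markers (led by Ccr7), T cell markers (Cd4), erythroid markers (Hba-a1) and epithelial markers (Cdh1) summed to at most 4.10, 2.90, 11.3 and 3.67 CPM.

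Of 10 listed antibody chain genes 1 was in the count data by symbol, Jchain, which joins IgM and IgA and is not part of IgG. Jchain had at most 1.11 CPM and too few counts for a test. RNA of IgG itself could therefore not be assessed. Of 14 other Fc receptors and Fc-binding proteins 5 passed the filter. Over both times 3 of these were called higher in Kaede-red cells and none lower, with a median log2 difference of 0.95. Of all tested genes 9.96% were called higher. These 3 are named after their values were seen. Fcrls, an Fc receptor-like scavenger molecule, had 0.0 to 1.46 CPM in Kaede-green and 0.82 to 3.62 CPM in Kaede-red libraries (2.57, SE 0.63, adjusted p = 0.0033 by edgeR). Without Kaede-green replicate 3 at 72h its difference was 5.25. Fcrl5, an Fc receptor-like protein, was at 0.0 to 1.22 and 0.75 to 2.81 CPM (2.49, SE 0.69, adjusted p = 0.0094 by edgeR), and without Kaede-green replicate 1 at 24h it differed by 4.19. Fcgrt, the heavy chain of the neonatal Fc receptor that recycles IgG, was at 0.41 to 4.90 and 2.71 to 10.7 CPM, and its call (0.95, adjusted p = 0.049) was lost without any 1 of 9 libraries, which were Kaede-green replicates 1, 3 and 4 and Kaede-red replicates 1 and 2 at 24h, and Kaede-green replicates 3 and 4 and Kaede-red replicates 3 and 4 at 72h. Trim21, a cytosolic antibody receptor and the most abundant of the 5, had 6.56 to 16.7 CPM in Kaede-green and 5.61 to 17.8 CPM in Kaede-red libraries and was not called. With the Rn45s share as a covariate none of the 5 was called, and with library sizes counted outside Rn45s 1 of 4 tested was.

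Fcer1g was set beside the other ITAM adaptors and their partner receptors. Of 8 tested genes of this list 5 were called lower and 1 higher in Kaede-red cells over both times, with a median of -0.79. Of all 9642 tested genes 990 were called lower and 960 higher. Tyrobp, which encodes the ITAM adaptor DAP12, fell from 136 ± 37.8 to 59.0 ± 4.72 CPM at 24h, and at 72h the means were 92.6 ± 18.0 and 46.4 ± 9.03 CPM (Kaede-green to Kaede-red, SD, n = 4 each). Every Kaede-red library (35.5 to 64.3 CPM) was below every Kaede-green library (71.8 to 168 CPM), as for 1.74% of all tested genes, and the difference was -1.10 (SE 0.15, adjusted p = 1.46e-06 by edgeR). With the Rn45s share as a covariate it was still called (-1.29, adjusted p = 0.0047). Clec4e and Clec4d, C-type lectin receptors that signal through the gamma chain, differed by -1.28 (SE 0.17, adjusted p = 1.10e-06) and -1.15 (SE 0.18, adjusted p = 1.23e-05), and both calls were lost with that covariate (-0.94 and -1.12). Trem1, a partner of DAP12 (-1.54, SE 0.20), and Clec7a, which carries its own activation motif (-0.48, SE 0.13), were also lower. With the covariate Trem1 was still called, and Clec7a was not (-0.51, adjusted p = 0.40 by edgeR), nor was it with no filter on low counts (-0.36, adjusted p = 0.12). These and Pira2 are named after their values were seen. Pira2, an activating receptor of the gamma chain, was higher at 28.5 to 53.9 against 9.39 to 29.3 CPM, ranges that just overlap (1.00, SE 0.17, adjusted p = 5.25e-05 by edgeR), and this call was lost with the covariate (0.33, adjusted p = 0.78). Under scaling by total counts only, Tyrobp, Clec4d, Clec4e, Trem1 and Clec7a lay above 0 (0.51 to 1.61), each below the shift of 2.20 that all genes showed.

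**Figure D4:**
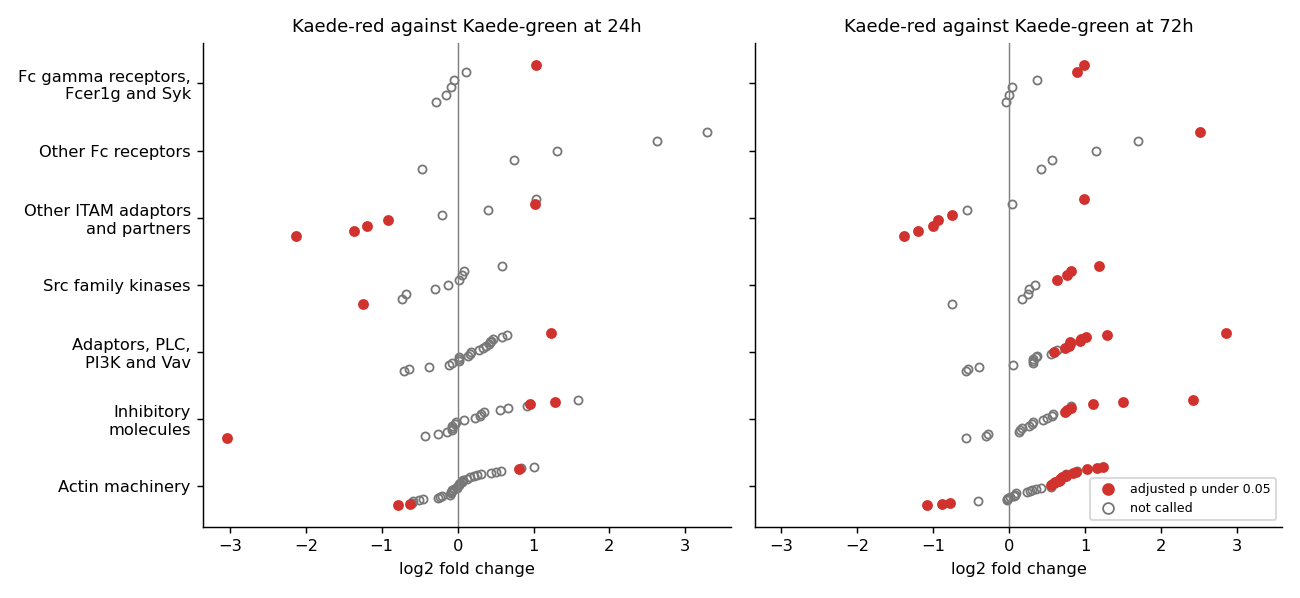
Log2 fold change of Kaede-red against Kaede-green cells (x axis) at 24h and at 72h for each tested gene of the lists (y axis, 1 list per band, genes ordered by value). Filled red points have an adjusted p under 0.05. At 24h 1 of 21 adaptor and PI3K genes and 1 of 34 actin genes were called higher, and at 72h 10 and 14 were. Of all tested genes 3.2% were called higher at 24h and 8.07% at 72h.

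The Src family kinases that phosphorylate the gamma chain, with the enzymes that control them, had 1 of 9 tested members called lower in Kaede-red cells at 24h (Fyn, median -0.13). At 72h 4 were called higher (Csk, Ptprc and Ptprj among them, median 0.35). Of all 9642 tested genes 415 were called lower at 24h and 778 higher at 72h. Fyn, named after its values were seen, differed by -1.25 (SE 0.25, adjusted p = 0.0014 by edgeR) at 24h and by 0.25 (SE 0.24, adjusted p = 0.52) at 72h, and the test of this change with time gave 1.497 (SE 0.34, adjusted p = 0.037). The call of the change was lost without any 1 of 9 libraries, which were Kaede-green replicates 2 and 3 and Kaede-red replicates 3 and 4 at 24h, and Kaede-green replicates 2 and 3 and Kaede-red replicates 1, 2 and 4 at 72h. Ptprj, a receptor phosphatase that activates these kinases, had 29.5 ± 5.01 CPM in Kaede-green and 67.0 ± 5.24 in Kaede-red libraries at 72h (1.19, SE 0.21, adjusted p = 0.00013 by edgeR). Without Kaede-green replicate 3 at 72h only Ptprj was called. With the Rn45s share as a covariate none of the 9 was called at either time.

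Of 21 tested adaptors, phospholipases, PI3-kinase subunits and Vav proteins that act below Syk, 1 was called higher at 24h (Pik3cg) and 10 at 72h. None was called lower at either time (medians 0.17 and 0.59). Over all tested genes 3.2% were called higher at 24h and 8.07% at 72h, and the count at 24h lay near that share. Of the 3084 genes with at least 10 counts in every library, fitted alone, 653 were called higher at 72h. The 24h call was lost without Kaede-red replicate 1 or 2 at 24h, and 2 were called without Kaede-green replicate 2 at 24h. At 72h Pik3ap1, a PI3-kinase adaptor, had 46.6 ± 8.0 CPM in Kaede-green and 93.9 ± 18.2 in Kaede-red libraries (1.02, SE 0.22, adjusted p = 0.0012 by edgeR). Vav1, an exchange factor for Rac, had 24.4 ± 5.63 and 42.3 ± 1.19 CPM (0.80, SE 0.20, adjusted p = 0.0053), and Lcp2, the adaptor SLP-76, had 19.2 ± 4.24 and 32.8 ± 3.47 CPM (0.78, SE 0.20, adjusted p = 0.0058). The 10 calls at 72h became 6 without Kaede-green replicate 2, 5 without Kaede-green replicate 3 and 6 without Kaede-red replicate 4 at 72h, and 0 with the Rn45s share as a covariate. Bcl10, which links the pathway to NF-κB and is named after its value was seen, was lower over both times (-0.59, adjusted p = 0.011 by edgeR). This call was kept in 6 of 8 alternatives other than scaling by total counts, with log2 differences from -0.62 to -0.47.

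On the inhibitory side, to which Fcgr2b belongs, 20 phosphatases, adaptors and ITIM receptors were tested. Over both times 8 of them were called higher in Kaede-red cells and 1 lower, with a median of 0.37. Of all 9642 tested genes 960 were called higher and 990 lower. Sirpa, the receptor for the CD47 signal against phagocytosis, had 24.9 to 46.6 CPM in Kaede-green and 53.9 to 127 CPM in Kaede-red libraries without overlap (1.23, SE 0.15, adjusted p = 2.17e-07 by edgeR). Lair1, a collagen receptor, differed at 24h by 1.29 (SE 0.20, adjusted p = 8.97e-05) and at 72h by 0.31 (SE 0.19, adjusted p = 0.30), and its 24h call was kept with the Rn45s share as a covariate. The change of the Lair1 difference with time was -0.98 (SE 0.28) and was not called (adjusted p = 0.073 by edgeR). Pirb, the inhibitory counterpart of Pira2, differed by 0.56 (SE 0.16, adjusted p = 0.013). Inpp5d, which encodes SHIP1, had 19.7 ± 8.03 CPM in Kaede-green and 42.2 ± 6.45 in Kaede-red libraries at 72h (1.11, SE 0.25, adjusted p = 0.0015), against 19.9 ± 4.12 and 18.8 ± 5.40 CPM at 24h, and the change of its difference with time was 1.18 (SE 0.35, adjusted p = 0.088). Cd33 was lower at 24h (-3.03, SE 0.52, adjusted p = 0.00022 by edgeR) and differed by 0.32 (SE 0.47, adjusted p = 0.71) at 72h. Its level was low, at 4.08 ± 0.74 CPM in Kaede-green and 0.48 ± 0.21 in Kaede-red libraries at 24h. The libraries held from 2 to 78 counts of it. Like Inpp5d, Cd33 is named after its values were seen. The change of the Cd33 difference with time was 3.35 (SE 0.70, adjusted p = 0.025 by edgeR), a call lost with DESeq2 and without any 1 of Kaede-green replicate 2 or Kaede-red replicates 3 or 4 at 24h, or Kaede-red replicates 1 or 2 at 72h. With that covariate none of the 20 was called over both times, and at 24h Lair1 alone was.

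Of 34 genes of the actin machinery that closes the phagocytic cup, 1 was called higher and 2 lower in Kaede-red cells at 24h (median 0.00). At 72h 14 were called higher and 3 lower (median 0.55). Of all 9642 tested genes 309 were called higher and 415 lower at 24h, and 778 and 845 at 72h. The counts at 24h lay near these shares. Of the 3084 genes with at least 10 counts in every library, fitted alone, 653 were called higher and 641 lower at 72h. Marcks, a membrane and actin binding protein, was called higher at both times (0.81, SE 0.20 and 1.03, SE 0.20, adjusted p = 0.010 and 0.00038 by edgeR), and the 24h call was lost without Kaede-green replicate 1 or Kaede-red replicate 2 at 24h. Without Kaede-green replicate 2 at 24h 2 genes were called higher at that time. Of the 2 genes lower at 24h, Arpc5 was called without any 1 library, and Arpc3 was not called without any 1 of Kaede-green replicates 1 to 3 or the 4 Kaede-red libraries at 24h, or Kaede-red replicate 2 at 72h. Wasf2, which activates the Arp2/3 complex, differed by 1.16 (SE 0.25, adjusted p = 0.0010) at 72h. Arpc5, a subunit of that complex, was lower, at 101 ± 8.44 CPM in Kaede-green and 59.4 ± 12.0 in Kaede-red libraries at 72h (-0.78, SE 0.19, adjusted p = 0.0034), and its calls at 24h and at 72h were lost with the Rn45s share as a covariate. The 14 genes called higher at 72h became 6 to 9 without 1 of Kaede-green replicates 1, 2 or 3 or Kaede-red replicates 1 or 2 at 72h, and 0 with the Rn45s share as a covariate.

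The levels of the 6 genes were also followed across libraries, as a description. Across the 16 libraries the log2 CPM of Fcgr1, Fcgr3 and Fcgr4 varied together (Pearson r of 0.77, 0.73 and 0.72 for the 3 pairs), and Fcgr2b followed them less (0.15, 0.23 and 0.33). Within groups, after the 4 group means were taken out, Fcgr2b had an r of 0.32 with Fcgr1, 0.79 with Fcgr3 and 0.49 with Fcgr4. These libraries share the differences in depth and Rn45s share given above, and with 4 libraries a group such values are imprecise. Among 1475 genes with a mean of at least 16 CPM, those with the pattern most like Fcgr2b were Marcks (r = 0.96, and 0.81 within groups), Adgre1, the F4/80 antigen of macrophages (0.95 and 0.73), and C3ar1, a complement receptor (0.95 and 0.82). For Syk they were Selplg (0.93), Plxnb2 (0.93) and Dock8 (0.92). For Fcer1g they were Ly6c2 (0.87), Trex1 (0.86) and Rnf114 (0.85), for Fcgr1 Coro1b (0.92), Eef1a1 (0.86) and Ubl3 (0.82), for Fcgr3 Psmb9 (0.84), Npc2 (0.815) and Ube2n (0.81), and for Fcgr4 Lgals1 (0.85), Coro1b (0.84) and Clec4a3 (0.83).

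Of the 4 linked genes on chromosome 1, Fcgr2b was called and its neighbours Fcgr4, Fcgr3 and Fcer1g were not, and the differences between them were not tested. Of the other annotated genes between Fcgr2b and Fcer1g, Sdhc and Tomm40l were tested and not called (log2 differences of 0.03, SE 0.23, and 0.27, SE 0.45). The exons of Fcgr2b overlap an antisense RNA gene, Gm38204. Whether the counting used strand is not given in the sources used here, so reads of the 2 genes may not be separated.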

How the data were processed

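RNA of sorted CD11b+ cells was sequenced by the study after SMARTer stranded total RNA library preparation (pico input) from 5 ng. Per the study's methods and the submitters' processing notes, the authors trimmed reads with Trim Galore, checked them with FastQC, aligned them with HISAT2 to mm10 and counted them per gene with featureCounts. Tool versions and the strand setting are not given in the sources used here. The deposited values are raw counts for 24421 genes in 16 libraries, and the number of columns that belong to no sample was 0. The authors' methods used DESeq2, which was run here as an alternative.

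Counts were tested in R 4.3.3 with edgeR 4.0.16 (TMM, filterByExpr by group, glmQLFit and glmQLFTest) in a single fit of 4 group means, with Benjamini-Hochberg adjustment over the 9642 genes tested and a threshold of 0.05. DESeq2 1.42.0, other scalings and filters, the Rn45s share as a covariate, replicate blocks and leaving out each library were tried. The exon length that scales levels and ratios was also taken from all GENCODE transcripts, an alternative chosen after seeing the data. Counts were simulated for the 9642 genes tested, with 200 genes drawn at random as changed. Over both times edgeR recovered 68% of genes changed by 1 and 93% of those changed by 2 on the log2 scale. The shares were 37% and 72% at 24h, 40% and 74% at 72h, 34% and 66% between times in Kaede-green, 47% and 90% in Kaede-red, and 8% and 53% for the change with time. They hold for genes drawn from all those tested, with a median SE of 0.39 at 24h and 0.27 over both times. The 6 genes had SEs of at most 0.23 and 0.16, and no recovery was computed for them. Exon lengths and loci came from GENCODE M21 and start regions from RefSeq. Libraries of a group differed beyond sampling noise (chi-square per gene of 3.21 to 95.6). The 6 genes and all gene lists were chosen with earlier results of these data known. Named from each pathway list were up to 3 called genes with the greatest difference over both times and a mean of at least 16 CPM, otherwise the most abundant gene, and the most abundant gene of each marker list. Other genes are said to be named after their values were seen. Total counts and counts outside Rn45s are given with the results, and Kaede-green values rest on fewer counts and are less precise. Some genes of the lists are counted in them but not reported here by name.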

Additional observations from a re-analysis of the deposited data

How the results depend on the processing

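Replicate numbers recur in the Kaede-green and Kaede-red groups, but the labels do not tie them to a mouse. Deviations of the 8 same-numbered pairs correlated at -0.018 to 0.153, 1 of them above 0.1, and 2 of 8 Kaede-green libraries were closest to their own number. With a replicate block the Fcgr2b difference over both times was 1.02 by number and 1.03 by number within a time. The block by number gave Fcgr1 0.0035 over both times, and the block within a time gave Fcgr1 0.0112 over both times, Fcgr4 0.0031 at 72h and 164 genes whose difference changed with time.

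Scaling by total counts only called 9328 genes over both times (9318 of them higher, against 960 higher and 990 lower with TMM), 9052 at 24h, 8133 at 72h, 36 between times in Kaede-green cells, 9 in Kaede-red cells, with none of the 6 genes among them, and 1 for the change with time. It gave, at 24h, at 72h and over both times, 2.27, 1.98 and 2.12 for Fcgr1, 2.18, 1.87 and 2.02 for Fcgr3, 2.33, 1.93 and 2.13 for Fcgr4 and 1.98, 2.25 and 2.12 for Fcer1g. Syk was at 2.26 at 24h, 2.55 over both times and 1.40 between times in Kaede-red cells, and Fcer1g at 0.27 between times in Kaede-green cells. Over both times Arpc5 was at 1.34, Bcl10 1.55, Cd33 0.71, Clec4d 1.01, Clec4e 0.87, Clec7a 1.61, Fyn 1.67, Src 1.32, Trem1 0.51, Trim21 2.17 and Tyrobp 0.96.

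With the Rn45s share as a covariate 173 genes were called over both times, 187 at 24h, 147 at 72h, 225 between times for Kaede-red and 150 whose difference changed with time. Fcgr2b was at 0.45, 0.49 and 0.41 and lost its calls. Syk was at -0.0345 over both times, 0.45 at 72h and -0.0835 between times in Kaede-green cells. Fcer1g was at -0.40 over both times, -0.0919 at 72h and -0.0232 between times in Kaede-red cells, Fcgr1 at -0.18 at 72h, and Fcgr4 at -0.15 at 24h and -0.23 over both times. Inpp5d, Lyn and Pirb were at -0.0369, -0.0781 and -0.11 over both times. The cause was not tested.

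DESeq2 called 13 genes between times in Kaede-green cells and 341 for the change with time, with Syk (0.95) as 1 of the 6 genes. Fitting only the groups compared called 1604 genes between times in Kaede-red cells. With no filter 37 genes were called between times in Kaede-green cells and 216 for the change with time. Fcgr1 was then at 0.0406 at 24h and 0.11 over both times, Fcgr3 at 0.10 at 72h and 0.0211 over both times, Fcgr4 at 0.15 at 72h, Syk at 0.0038 at 24h and 0.52 over both times, Trim21 at 0.0885 over both times, and the change of the Fcgr2b difference with time at 0.014. With at least 10 counts in every library 161 genes were called for the change with time. Fcgr1 was at 0.10 at 24h and 0.0873 over both times, Fcgr3 at 0.0054 at 24h, Fcgr4 at 0.0245 at 72h, Syk at 0.0522 at 24h and 0.49 over both times, and Trim21 at 0.0516.

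Without 1 library, 0 to 2 genes were called between times in Kaede-green cells, 287 to 1109 in Kaede-red cells and 2 to 155 for the change with time. Over both times Fcgr1 ranged from -0.0905 to 0.0741, Fcgr3 from -0.22 to 0.00, Fcgr4 from -0.0586 to 0.17, Fcer1g from -0.0247 to 0.16, Syk from 0.32 to 0.47 and Trim21 from -0.12 to 0.0629. At 24h Fcgr1 ranged from -0.21 to 0.0862, Fcgr3 from -0.37 to 0.0277, Fcgr4 from -0.10 to 0.33 and Syk from -0.24 to 0.0373. At 72h Fcgr1 ranged from -0.0344 to 0.15, Fcgr3 from -0.12 to 0.0362 and Fcgr4 from -0.0759 to 0.10. Syk between times in Kaede-green cells ranged from -0.083 to 0.18, and the change of the Fcgr2b difference with time from -0.20 to 0.0906.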
